A study of Homo sapiens with 12 samples.

Results

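MX1 and MX2 are adjacent genes that encode the MX proteins, large GTPases of the dynamin superfamily. They were chosen by name, as the rows of the count table whose Ensembl identifiers map to these symbols, and both of the 2 were found among 60669 rows. MX1 is ENSG00000157601.14 and MX2 is ENSG00000183486.13. The MX proteins are made in response to type I and type III interferons. The secreted interferon binds its receptor, and the receptor's kinases, JAK1 and TYK2, start a signal that assembles ISGF3, a factor that contains STAT2 and IRF9 and binds interferon-stimulated response elements (ISREs) in promoters. MX1 (MxA) acts in the cytoplasm against influenza and other RNA viruses. MX2 (MxB) sits at the nuclear envelope and limits HIV-1 and herpesviruses.

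RNA was measured in HT1080 cells, a human fibrosarcoma line that here stably expressed dCas9, labelled as CRISPR interference. One line carried a guide RNA to LTR8B, a retroviral long terminal repeat element lying in the first intron of SP140 (LTR8B cells, also labelled SP140 KD), and the other a control guide against GFP (GFP cells). Both lines were sampled without treatment and after 4 h of IFNB (interferon beta) at 10 U/mL. There were 4 LTR8B IFNB, 4 LTR8B untreated, 2 GFP IFNB and 2 GFP untreated libraries of polyadenylated RNA. All cells grew under blasticidin and puromycin, which selected for dCas9 and for the guide. Each guide is represented by 1 line, so an effect of the guide and a difference between lines cannot be told apart. The labels do not say whether replicates were separate cultures, so p-values measure the spread between these libraries, which may be technical.

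The libraries held 12404270 to 28801579 counts. SP140, the gene carrying the targeted element, was at 0.901 to 1.48 CPM in LTR8B IFNB libraries, against 29.8 to 32.0 CPM in GFP IFNB libraries. CPM here is counts per 1000000 counts after TMM scaling of library sizes. In untreated cells SP140 was at 0.515 to 1.84 CPM in LTR8B libraries, against 29.8 to 30.8 CPM in GFP libraries. Of the markers checked, the 6 mesenchymal genes (VIM, FN1, PDGFRB, COL1A1, COL1A2 and THY1) summed to 3467 to 4172 CPM per library, most of it VIM, with THY1 at no more than 0.165 CPM in any group mean. The 5 haematopoietic genes summed to 0.887 to 1.46 CPM, and the epithelial adhesion genes EPCAM and CDH1 were at no more than 0.115 CPM in any group mean. The keratins KRT8 and KRT18 were expressed, at group means of 244 to 284 CPM and 131 to 148 CPM. With them the 5 epithelial genes summed to 358 to 444 CPM per library, and the 3 endothelial genes summed to 6.73 to 12.5 CPM.

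The genes lie head to tail on the plus strand of chromosome 21 (hg38 coordinates of GENCODE release 29). MX2 spans 41361943 to 41409390 and MX1 spans 41420304 to 41459214, with 10913 bases between them. The annotated coding transcript of MX2 that is marked as principal has 14 exons and 3042 bases. MX1 has 3 such transcripts, with 15 to 19 exons and 2810 to 3470 bases, and several start sites. An antisense gene inside MX1 (41441056 to 41445708) had 0 counts in all 12 libraries, and the sources do not say whether counting used strand.

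The promoter table from RefSeq (GRCh38.p14) held 3 windows of 300 bases for MX1, 1 per start site. They were searched on both strands for the ISRE core GAAANNGAAA, for the related repeat GAAANGAAA with 1 base between the GAAA parts, and for TTCNNNGAA, the core of the interferon-gamma-activated site (GAS). The letters were chosen after the windows had been read, and matches of different motifs may overlap. The ISRE core occurred in 3.57% of all 35116 windows, the shorter repeat in 3.12% and the GAS core in 7.66%. The stretches below are shown because they hold every match of the 2 repeats in the MX1 windows. Capitals mark the matched bases, and a repeat on the minus strand reads as TTTC on the printed plus strand.
MX1 start at 41420558, chr21:41420529-41420558, plus strand: caatttgactTTTCCTTTCtggaaaccagc
MX1 start at 41420558, chr21:41420557-41420586, plus strand: gcgagcaGAAATGAAACCGAAActgaattg
MX1 start at 41426239, chr21:41426116-41426145, plus strand: aggagctaggTTTCGTTTCtgcgcccggag
MX1 start at 41426239, chr21:41426161-41426190, plus strand: ggtctgtgagTTTCATTTCttcgcggcgcg
MX1 start at 41432050, chr21:41431844-41431873, plus strand: ggtcactctgTTTCTCTTTCcgtgaataaa
Counted from the start site, the first window had an ISRE core at position 11 on the plus strand (41420569 to 41420578), overlapping a shorter repeat at position 6, and a shorter repeat at -19 on the minus strand. The second window had shorter repeats at -113 and -68 on the minus strand and no ISRE core. The third had an ISRE core at -196 on the minus strand, overlapping a GAS core at -189 (41431861 to 41431869). Each printed stretch also lies in an exon of at least 1 GENCODE transcript of MX1, since transcripts start at several positions. The matches describe these letters and were not tested as binding sites.

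The first question was how far IFNB raised the MX genes in each line. MX2 was close to silent without IFNB and became abundant with it, whereas MX1 was low throughout and rose far less. In LTR8B cells MX2 was at 148, 112, 139 and 94.0 CPM with IFNB, against 0.461, 0.309, 0.469 and 0.411 CPM untreated. In GFP cells MX2 was at 185 and 188 CPM with IFNB, against 0.605 and 0.377 CPM untreated. Every treated library lay above every untreated one in each line, as was the case for 6.16% of all tested genes in LTR8B cells and 22.6% in GFP cells. The untreated values rest on 6 to 16 MX2 counts per library.

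MX1 was at 11.6, 9.34, 10.8 and 8.27 CPM in LTR8B IFNB libraries, against 2.40, 1.03, 1.81 and 2.16 CPM in LTR8B untreated libraries. In GFP cells it was at 13.9 and 14.2 CPM with IFNB, against 2.003 and 2.36 CPM untreated. The treated and untreated libraries did not overlap in either line. The shares of all tested genes with every treated library above every untreated one were 6.16% in LTR8B cells and 22.6% in GFP cells. In counts, MX1 ran from 133 to 292 per treated library and from 20 to 54 per untreated library.

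**Figure D1:**
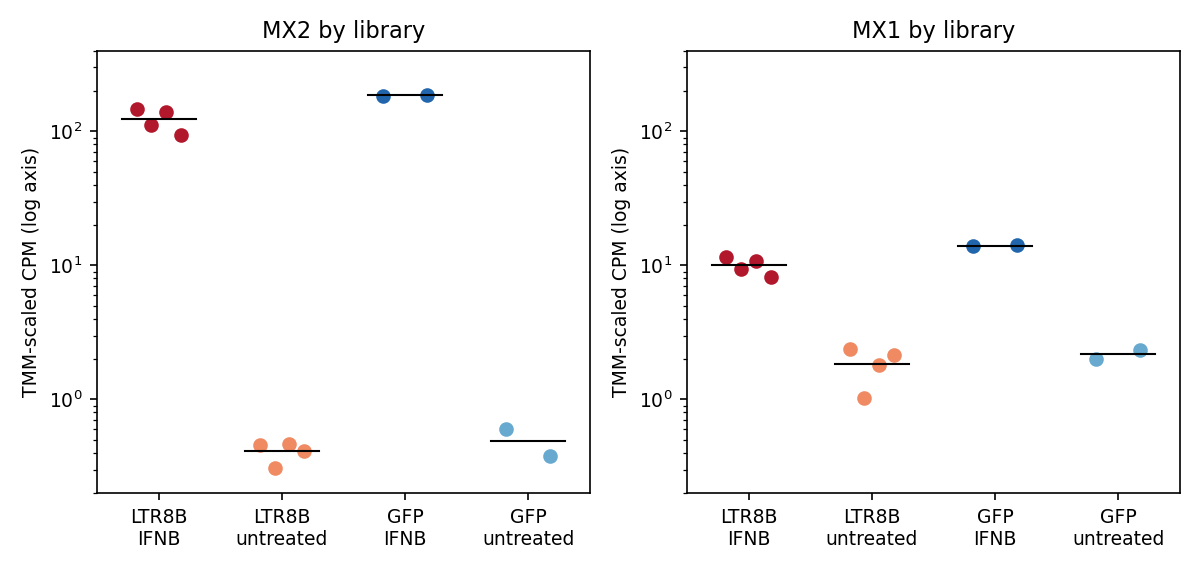
TMM-scaled CPM of MX2 (left) and MX1 (right) in each of the 12 libraries, on a log axis from LTR8B IFNB to GFP untreated. Points are libraries and bars are group means: MX2 averaged 123 CPM in LTR8B IFNB and 187 CPM in GFP IFNB libraries, and MX1 stayed under 15 CPM in all of them.

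In the edgeR quasi-likelihood fit to all 12 libraries, MX2 rose with a log2 fold change of 8.17 in LTR8B cells (SE 0.21, adjusted p = 7.99e-13) and 8.52 in GFP cells (SE 0.28, adjusted p = 3.26e-11). MX1 rose with a log2 fold change of 2.42 in LTR8B cells (SE 0.18, edgeR adjusted p = 2.36e-08) and 2.69 in GFP cells (SE 0.24, edgeR adjusted p = 4.71e-07). The adjusted p is Benjamini-Hochberg over all 16393 genes tested, with a threshold of 0.05. Both genes passed in both lines, where 4.01% of all tested genes were called higher in LTR8B cells and 3.06% in GFP cells. By size of the fold change MX2 ranked 5 in LTR8B cells and 3 in GFP cells of all tested genes, and MX1 ranked 118 and 119. As ratios of group means, MX2 rose 299-fold in LTR8B cells and 380-fold in GFP cells, and MX1 rose 5.41-fold and 6.45-fold. Leaving out any 1 library ended none of these 4 calls.

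The replicate numbers of treated and untreated libraries give a fold per number. For MX2 these folds were 322, 362, 296 and 228 in LTR8B cells, and 306 and 499.6 in GFP cells. For MX1 they were 4.83, 9.07, 5.98 and 3.83 in LTR8B cells, and 6.95 and 6.02 in GFP cells. The folds of the 2 lines overlapped for each gene. The highest MX1 fold came from LTR8B replicate 2, whose untreated library had the fewest MX1 counts (20).

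MX2 was the more abundant MX gene with IFNB and MX1 without it. The MX2 to MX1 count ratio does not depend on library scaling. It was 12.8, 11.985, 12.8 and 11.4 in LTR8B IFNB libraries, against 0.192, 0.3, 0.259 and 0.190 in LTR8B untreated libraries. In GFP cells it was 13.29 and 13.28 with IFNB, against 0.302 and 0.160 untreated. The log2 ratio was higher with IFNB by 5.73 in LTR8B cells (exact two-sided permutation p = 0.0286) and by 5.92 in GFP cells (exact permutation p = 0.333), which are the smallest p that 70 and 6 arrangements allow. Permuted within each line together, the mean difference of 5.82 had an exact p = 0.00476, again the smallest possible over 420 arrangements, and 0.0286 after adjustment over the 6 ratio comparisons. All 6 treated libraries lay above all 6 untreated libraries.

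Levels of different genes can be compared per length. Per kilobase of the principal transcript, taking the median length for MX1, MX2 was at 40.5 CPM and MX1 at 3.51 CPM in LTR8B IFNB cells, a level ratio of 11.5. In GFP IFNB cells they were at 61.4 and 4.93 CPM per kilobase, a level ratio of 12.4. Untreated, MX1 was the higher one, at 4.78 times the level of MX2 in LTR8B cells and 4.74 times in GFP cells. With the union of all annotated exons as the length, the IFNB level ratios of MX2 to MX1 were 8.13 and 8.77.

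**Figure D2:**
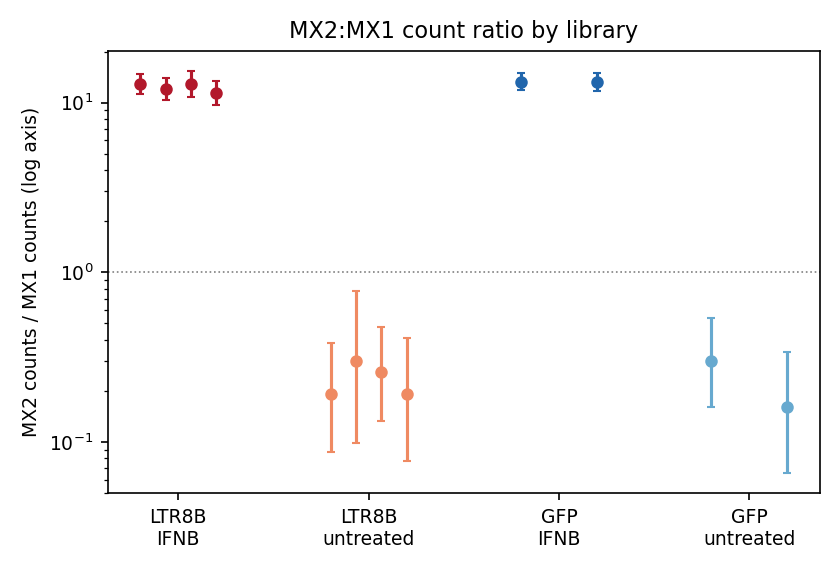
MX2 counts divided by MX1 counts in each library, on a log axis, with exact 95% binomial intervals that cover counting error only. The treated libraries lie between 11.4 and 13.3 and the untreated ones between 0.160 and 0.302, on opposite sides of 1 (dotted line).

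The lists of related genes place these responses. Of 9 genes for interferon receptors and ISGF3 signalling 8 were tested, and 5 rose in LTR8B cells and 4 in GFP cells, with none lower. Of all tested genes 4.01% were called higher in LTR8B cells and 3.06% in GFP cells. IRF9, the DNA-binding part of ISGF3, rose by 4.55 on the log2 scale in LTR8B cells (edgeR adjusted p = 6.23e-16) and 4.86 in GFP cells (edgeR adjusted p = 8.29e-14). STAT2, another part of ISGF3, rose by 2.28 and 2.31, and the transcription factor IRF1 by 1.60 and 1.56 in LTR8B and GFP cells. The receptor chain IFNAR2 rose in LTR8B cells by 0.47 (edgeR adjusted p = 0.00182), and in GFP cells its log2 fold change was 0.27 (edgeR adjusted p = 0.411). The median log2 fold change of the list was 1.03 in LTR8B cells and 0.91 in GFP cells, against -0.01 over all tested genes in each line. The log2 fold changes of MX1 lay near those of STAT2, and those of MX2 lay above every member of this list. In bulk RNA, a change in the share of cells that respond and a change in RNA per cell cannot be told apart.

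Of 8 negative feedback genes 7 were tested and 3 rose in each line. Over all genes the shares called higher were 4.01% in LTR8B cells and 3.06% in GFP cells. USP18, which blocks signalling at the receptor, rose by 6.21 in LTR8B cells and 6.22 in GFP cells. The ubiquitin-like modifier ISG15 rose by 5.10 and 5.07, and the JAK inhibitor SOCS1 by 1.95 and 1.99. The list medians were 0.23 in LTR8B cells and 0.12 in GFP cells.

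Guanylate-binding proteins, other interferon-inducible GTPases, rose too. Their list of 8 genes also held IRGM, which was not tested. Of the 8, 6 were tested, all of them guanylate-binding proteins. Of these 6 rose in LTR8B cells and 5 in GFP cells, with list medians of 3.20 and 3.34. The shares of all genes called higher were 4.01% and 3.06%. GBP4 rose by 4.91 in LTR8B cells and 4.65 in GFP cells, GBP1 by 4.22 and 4.38, and GBP5 by 3.38 and 3.65. GBP6 rose in LTR8B cells (2.20, edgeR adjusted p = 0.00107) and had a log2 fold change of 1.10 in GFP cells (edgeR adjusted p = 0.42). GBP3 rose by 3.01 and 3.02, and GBP2 by 2.07 and 2.27. The log2 fold changes of all 6 were smaller than that of MX2 in both lines.

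Of 10 other members of the dynamin superfamily, which shape endocytic vesicles (DNM1, DNM2, DNM3), mitochondria (DNM1L, OPA1, MFN1, MFN2) or the endoplasmic reticulum (atlastins), 1 rose in each line. That was the atlastin ATL3, at 0.25 in LTR8B cells (edgeR adjusted p = 0.0288) and 0.36 in GFP cells (edgeR adjusted p = 0.0276). Its call in GFP cells ended without any 1 of the 4 GFP libraries (edgeR adjusted p from 0.0954 to 0.325), and its call in LTR8B cells without 5 of the 8 LTR8B libraries (0.0689 to 0.145). The list medians were 0.01 and 0.06. With 4.01% and 3.06% of all genes called higher, 1 call in 10 genes says little about the family.

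Of 11 host factors tied to MX proteins, 0 passed in either line by edgeR, DESeq2 or limma-voom, with 0 at an unadjusted p under 0.05 in LTR8B cells and 1 in GFP cells for each tool. Over all 16393 genes edgeR called 737 in LTR8B cells and 524 in GFP cells in either direction. An unadjusted p under 0.05 was found for 2110 and 1849 of them. For so short a list the count of 0 is near the share called over all genes. The listed host factors include the RNA helicases DDX39A and DDX39B, cyclophilin A (PPIA), the capsid-binding factor CPSF6, nucleoporins and transportins. DDX39B was at 248 CPM in LTR8B IFNB and 258 CPM in LTR8B untreated cells, and PPIA at 1791 and 1742 CPM. Of 8 interferon genes, IFNE was tested and did not pass, and the other 7 had at most 1 count each in all 12 libraries together. IFNB1 had 1 count, in LTR8B untreated cells.

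**Figure D3:**
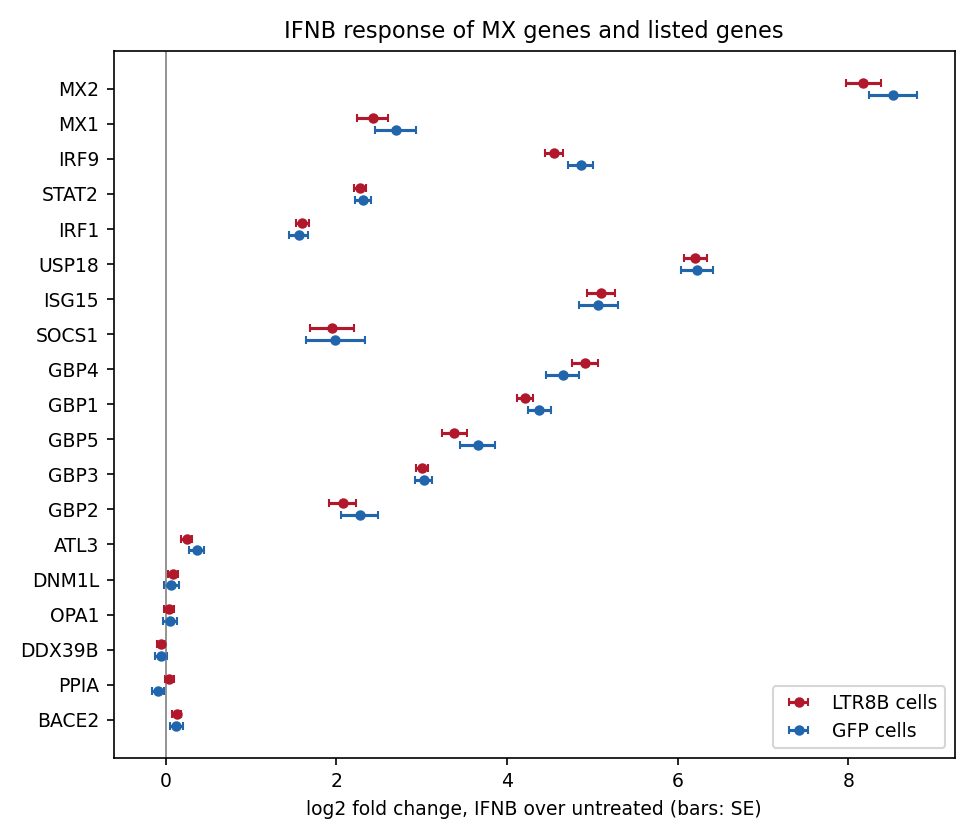
Log2 fold changes (points) and SE (bars) for IFNB over untreated in LTR8B cells (red) and GFP cells (blue), for the MX genes and genes of the fixed lists. MX2, at 8.17 and 8.52, lies farthest right and MX1, at 2.42 and 2.69, lies near STAT2.

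The neighbours of the MX genes were examined next. Of 18 listed neighbours on chromosome 21, 8 were tested, and 0 passed in either line by edgeR, DESeq2 or limma-voom, with 2 at an unadjusted p under 0.05 in LTR8B cells and 0 in GFP cells for each tool. With the replicate numbers as a block in edgeR 1 of the 8 passed, PRDM15, which encodes a zinc finger protein and was lower with IFNB in LTR8B cells (log2 fold change -0.28, edgeR adjusted p = 0.0179). Over all 16393 genes the main fit called 737 in LTR8B cells and 524 in GFP cells in either direction, with 2110 and 1849 at an unadjusted p under 0.05. A count of 0 called in so few genes lies near the share called over all genes. BACE2, a protease whose gene lies upstream of MX2, was at 57.1 CPM with IFNB and 52.3 CPM untreated in LTR8B cells. Its log2 fold change was 0.13 there (edgeR adjusted p = 0.310) and 0.12 in GFP cells (edgeR adjusted p = 0.575). The gene between BACE2 and MX2, FAM3B, had 34 counts in all libraries together, and TMPRSS2, the protease gene beyond MX1, had 3. Within 1000 kb of the MX2 start 37 annotated genes were in the table and 7 were tested. MX2 and MX1 were the 2 that passed in each line, and TFF3, 1 of the 7, had 136 counts in all.

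**Figure D4:**
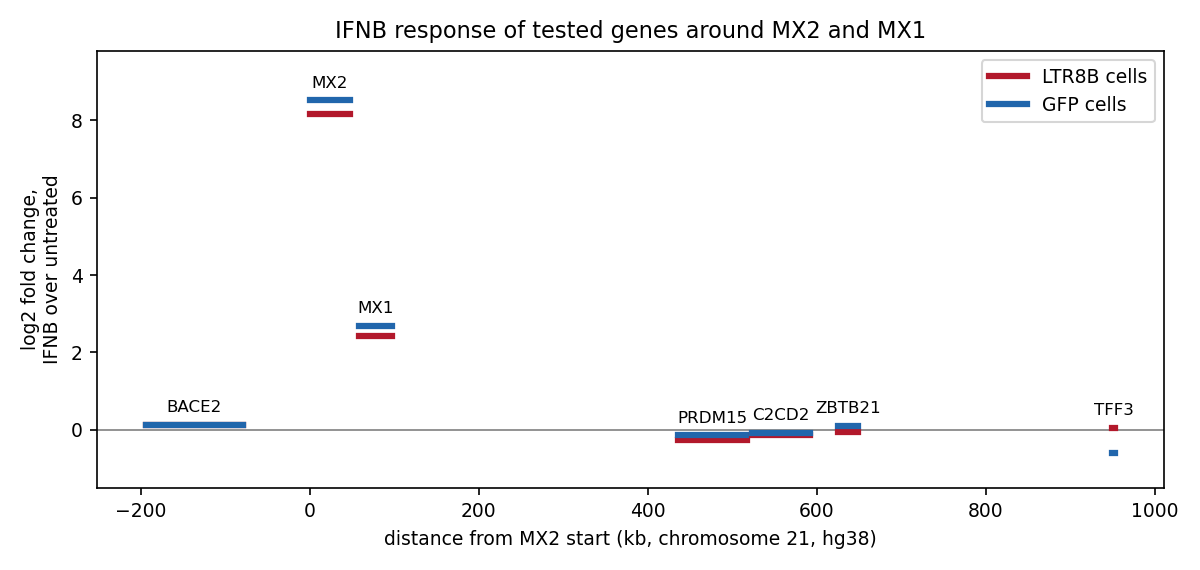
Log2 fold change with IFNB in LTR8B (red) and GFP (blue) cells of the 7 tested genes within 1000 kb of the MX2 start, drawn over the length of each gene. The x axis is the distance from the MX2 start in kb. MX2 and MX1 stand at 8.17 and 2.42 in LTR8B cells, and the log2 fold changes of the other 5 genes lie between -0.59 and 0.13 over both lines.

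The second question was whether the MX genes differed between the guides. With IFNB both were lower in LTR8B cells, and no library of 1 line overlapped the other. MX2 averaged 123 ± 24.8 CPM in LTR8B IFNB libraries (SD, n = 4) and 187 ± 2.29 CPM in GFP IFNB libraries (SD, n = 2), or 66.0% of the GFP level. MX1 averaged 10.0 ± 1.48 CPM in LTR8B IFNB libraries (SD, n = 4) and 14.05 ± 0.177 CPM in GFP IFNB libraries (SD, n = 2), or 71.2%. Of all tested genes 9.43% had every LTR8B IFNB library below both GFP IFNB libraries.

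The differences did not pass the threshold in the edgeR fit to 1 mean per group, and for MX2 the call depended on the fit. The log2 fold change was -0.60 for MX2 (SE 0.13, approximate 95% interval -0.86 to -0.34, unadjusted p = 5.20e-04, edgeR adjusted p = 0.0936). For MX1 it was -0.49 (SE 0.18, interval -0.85 to -0.14, unadjusted p = 0.0140, edgeR adjusted p = 0.394). In this comparison 0.122% of all genes were called lower. Of the 2 genes edgeR called 0 (2 at an unadjusted p under 0.05), limma-voom 0 (2 likewise) and DESeq2 called MX2 (log2 fold change -0.60, DESeq2 adjusted p = 0.00980). In edgeR 1554 of all 16393 genes had an unadjusted p under 0.05, and DESeq2 called 118 genes in either direction. With the replicate numbers as a block MX2 passed in edgeR (-0.54, adjusted p = 0.0374). It also passed in edgeR without the low-count filter (-0.59, SE 0.08, adjusted p = 2.49e-09). The fit without the filter gave nearly the same log2 fold change with a smaller SE, and it called 260 of all genes against 58. The block matches same-numbered libraries of the 2 lines. With IFNB, however, their deviations from group means correlated at -0.056 for number 1 and -0.450 for number 2. Higher numbers occur only in LTR8B cells, so the block estimate rests mainly on numbers 1 and 2. MX2 also passed in edgeR without LTR8B IFNB replicate 1 (adjusted p = 0.0134) or without replicate 4 (adjusted p = 0.0375). By size, MX2 ranked 810 and MX1 1127 from the lowest fold change of 16393.

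The LTR8B IFNB libraries spread more widely than the GFP ones, and the order was the same for both genes: replicate 1 was highest, then 3, 2 and 4. MX2 was at 148 CPM in replicate 1 and 94.0 CPM in replicate 4, and MX1 at 11.6 and 8.27 CPM. Replicate 4, the lowest for MX2 and MX1, was also lowest for IRF9 (96.6 CPM) and USP18 (79.7 CPM). Between the lines, COL1A1 (a mesenchymal collagen) and CDH5 (an endothelial cadherin) were lower in LTR8B cells averaged over treatments, by edgeR log2 fold changes of -0.64 (adjusted p = 0.0492) and -1.71 (adjusted p = 0.0269), and were named after their values were seen. Of the mesenchymal markers limma-voom called 0, and of the endothelial markers DESeq2 called 0. VWF, another endothelial marker, had a log2 fold change of 0.19. CDH5 was at no more than 0.590 CPM in any group mean, and the other tested markers did not pass in edgeR. The part of these differences in the MX result was not tested.

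Untreated, the lines overlapped for both genes. MX2 averaged 0.413 ± 0.0736 CPM in LTR8B untreated libraries (SD, n = 4) and 0.491 ± 0.161 CPM in GFP untreated libraries (SD, n = 2). Of all genes 0.36% were called in either direction, and of the 2 MX genes 0 were, by edgeR, DESeq2 or limma-voom, with 0 at an unadjusted p under 0.05 in each. Over all 16393 genes 1840 had an unadjusted p under 0.05 in edgeR. The log2 fold change of MX2 was -0.26 with an interval of -1.36 to 0.85 (edgeR adjusted p = 0.898). MX1 averaged 1.85 ± 0.597 CPM in LTR8B untreated libraries and 2.18 ± 0.249 CPM in GFP untreated libraries. Its log2 fold change was -0.22 with an interval of -0.71 to 0.26 (edgeR adjusted p = 0.764).

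Averaged over treatments, the log2 fold change was -0.43 for MX2 (SE 0.30, edgeR adjusted p = 0.526) and -0.36 for MX1 (SE 0.15, edgeR adjusted p = 0.260), where 2.14% of all genes were called in either direction. Of the 2 genes 0 passed by edgeR (1 at an unadjusted p under 0.05), DESeq2 (2) or limma-voom (1). Over all 16393 genes 2593 had an unadjusted p under 0.05 in edgeR. Exact two-sided permutation of the guide labels within treatments gave p = 0.0444 for MX2 (mean difference of log2(CPM + 1) of -0.35) and p = 0.0578 for MX1 (-0.32). After adjustment over the 6 guide comparisons of levels each was 0.173. With same-numbered libraries kept together as units, which is an added alternative, each exact p was 0.133, where the smallest of 15 arrangements is 0.0667. Within the IFNB libraries alone each was 0.133 too.

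The interaction of guide and IFNB, the difference between the 2 IFNB responses, was -0.35 for MX2 (SE 0.59, interval -1.495 to 0.80, edgeR adjusted p = 0.996). For MX1 it was -0.27 (SE 0.31, interval -0.87 to 0.33, edgeR adjusted p = 0.996). Of the 2 genes 0 passed by edgeR, DESeq2 or limma-voom, with 0 at an unadjusted p under 0.05 in each. Across all genes the interaction called 0, or 0% (489 at an unadjusted p under 0.05), by edgeR, and 0 by DESeq2 and limma-voom.

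The ratio of MX2 to MX1 was also compared between guides. With IFNB the log2 count ratio of MX2 to MX1 was 3.61 ± 0.0834 in LTR8B libraries (SD, n = 4) and 3.73 ± 0.000529 in GFP libraries (SD, n = 2), a difference of -0.12 (exact permutation p = 0.133). The groups did not overlap, but the counting intervals of all 6 libraries did: the lowest ratio, 11.4 in LTR8B replicate 4, had an interval of 9.64 to 13.5, and the 13.3 of GFP replicate 1 one of 11.8 to 15.02. Over both treatments the difference was -0.02 (exact permutation p = 0.84).

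For the signalling genes, with IFNB the log2 fold change between guides was -0.03 for STAT2 (SE 0.08, edgeR adjusted p = 0.924), -0.14 for IRF9 (SE 0.10) and -0.05 for USP18 (SE 0.11). STAT2 was at 223 to 256 CPM in LTR8B IFNB libraries, within which the GFP IFNB values of 250.3 and 241 CPM fell. USP18 was at 79.7 to 110 CPM in LTR8B IFNB libraries, within which the GFP IFNB values of 101 and 94.8 CPM fell. IRF9 was at 96.6 to 116 CPM in LTR8B IFNB libraries, against 125 CPM, above that range, and 115 CPM in GFP IFNB libraries. ISG15 was at 179 to 284 CPM in LTR8B IFNB libraries, against 297 CPM, above that range, and 250 CPM in GFP IFNB libraries. Of the 8 tested genes of the signalling list 0 passed with IFNB by edgeR (2 at an unadjusted p under 0.05), DESeq2 (3) or limma-voom (3). The 2 with the smallest edgeR p, IFNAR2 (log2 fold change 0.30, SE 0.11) and JAK1 (0.18, SE 0.07), were higher in LTR8B cells. The log2 fold changes of 5 of the 8 were negative, and the list median was -0.03. Of the 6 tested guanylate-binding proteins 0 passed by edgeR (1 at an unadjusted p under 0.05), DESeq2 (1) or limma-voom (2). Their range was from -0.34 for GBP5 to 0.41 for GBP6. Between guides with IFNB 1554 of all 16393 tested genes had an unadjusted p under 0.05 in edgeR, and 58 were called in either direction. A count of 0 in lists this short lies near that share and says little about the lists. Whether the MX genes differ from these genes in the size of the guide effect was not tested.

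**Figure D5:**
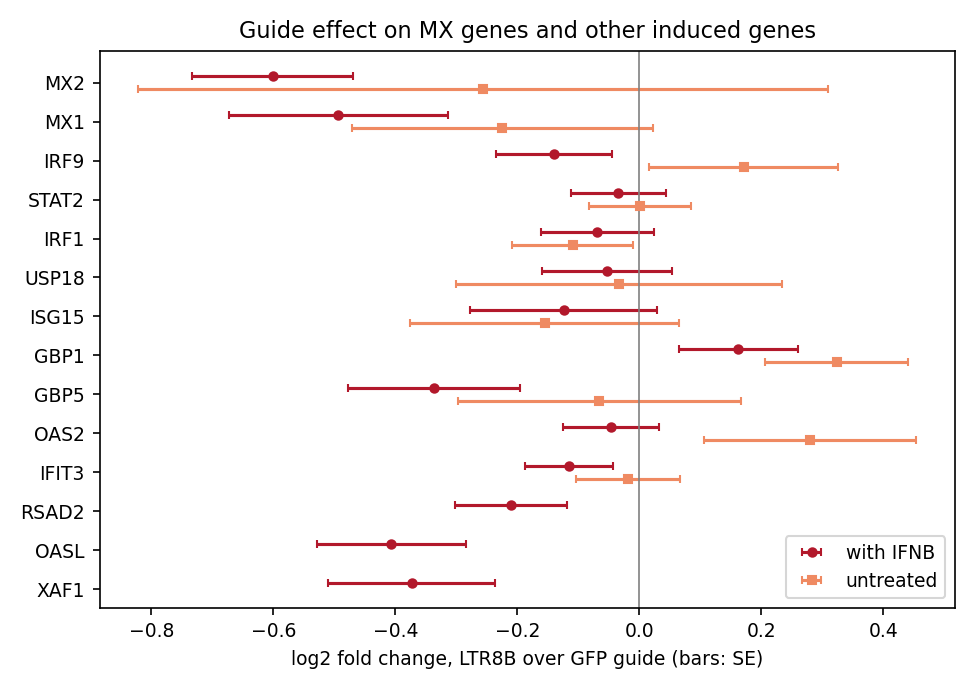
Log2 fold changes (points) and SE (bars) for LTR8B over GFP cells with IFNB (circles) and untreated (squares), for the MX genes and other genes raised by IFNB. MX2 (-0.60) and MX1 (-0.49) with IFNB lie lowest of the genes drawn, which are a chosen set. Of induced genes not drawn, IRF1-AS1 was at -0.49 (SE 0.16), ZBP1 at -0.43 (SE 0.27) and GBP6 at 0.41 (SE 0.40) with IFNB. Untreated values are not drawn for RSAD2, OASL and XAF1, whose means over all untreated libraries were below 0.3 CPM. XAF1 averaged 0.329 CPM in LTR8B untreated and 0.184 CPM in GFP untreated libraries.

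Genes with the profile most like each MX gene over the 12 libraries were found by the root mean square difference between centred log2(CPM + 1) values, where a small value means a like profile. For MX2 the nearest were IFIT3 (0.313), RSAD2 (0.317), OAS2 (0.349), XAF1 (0.574) and OASL (0.629), all known interferon-induced genes. IFIT3 encodes an RNA-binding antiviral protein, RSAD2 the radical SAM enzyme viperin, and OAS2 an oligoadenylate synthetase. RSAD2 was at 131 CPM in LTR8B IFNB and 151 CPM in GFP IFNB cells, against 123 and 187 CPM for MX2. Untreated, RSAD2 averaged 0.025 CPM in LTR8B and 0.024 CPM in GFP cells, levels at which adding 1 damps the fold. With IFNB OASL was at 43.5 CPM in LTR8B and 57.5 CPM in GFP cells, and XAF1 at 52.8 CPM in LTR8B and 68.4 CPM in GFP cells.

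For MX1 the nearest were ZCCHC2 (0.174), ZBP1 (0.219), ZC3HAV1 (0.220), C3AR1 (0.226) and IRF1-AS1 (0.226). ZBP1 is a sensor of Z-form nucleic acid, ZC3HAV1 the antiviral protein ZAP, and C3AR1 a complement receptor. ZBP1 was at 3.07 CPM in LTR8B IFNB and 0.030 CPM in LTR8B untreated cells, a level at which adding 1 damps the fold. Its edgeR log2 fold changes were 6.29 in LTR8B and 4.55 in GFP cells, against 2.42 and 2.69 for MX1. IRF1-AS1 was at 5.25 CPM in LTR8B IFNB and 7.40 CPM in GFP IFNB cells, against 10.0 and 14.05 CPM for MX1. It lies beside IRF1, and reads of the 2 genes cannot be told apart where they overlap if strand was not used. The distance between MX1 and MX2 was 2.29, in a measure that counts the size of the change in log2(CPM + 1). The median distance of all genes was 3.33 from MX2 and 1.07 from MX1. MX1 ranked 82 among the genes nearest MX2, and MX2 ranked 16387 among those nearest MX1. With a pseudocount of 0.25 in place of 1, 3 of the 5 genes nearest MX2 and 2 of the 5 nearest MX1 were the same, so the lists depend on that choice.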

How the data were processed

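The authors deposited a table of whole-number counts per gene, 1 column per library. Per the submitters' processing notes, Salmon 0.13.1, DESeq2 1.38.3 and hg38 were used. The role of each step, the annotation and the use of strand are not known from the labels or headers. Symbols came from a table of gene names, with MX1 and MX2 matched without the identifier's version. Of 60669 genes, 16393 passed filterByExpr (minimum count 10, minimum total 15). edgeR 4.0.16 in R 4.3.3 fitted a robust quasi-likelihood model with 1 mean per group after TMM scaling, tested on simulated data. DESeq2 1.42.0 and limma 3.58.1 (voom) were alternatives. SE is the log2 fold change divided by the root of the F statistic. A count of 0 in 1 library allows 3 counts, or 0.100 to 0.244 CPM, counting error only. Replicates were compared by chi-square (2.61 to 15.5 per degree of freedom), and no pair was a duplicate.

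The replicate numbers paired treated with untreated LTR8B libraries: deviations from group means correlated at 0.438, 0.604, 0.132 and 0.439 within same numbers over genes of at least 10 CPM. Different-numbered LTR8B pairs ran from -0.491 to 0.205, a range that holds the 0.132 of number 3. In GFP cells the value was 0.266. With 2 libraries per group the deviations mirror each other, so both GFP pairs must give the same value. The members and lists were chosen with earlier results of these data known. The genes named were the members, SP140, up to 6 list members with the smallest adjusted p in the IFNB responses, any list member called between guides, and the 5 nearest profiles; other list members were named after their values were seen. A gene that this rule also names is counted in its list but not reported here.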

Additional observations from a re-analysis of the deposited data

How the results depend on the processing

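The IFNB responses of MX1 and MX2 kept direction and call under every alternative run (DESeq2 size factors, no low-count filter, DESeq2, limma-voom, a replicate block and leaving out each library). The MX2 guide effect with IFNB gained its call under some alternatives, and the cause was not tested. It did so without the filter (-0.59, edgeR adjusted p = 2.49e-09), where its SE was 0.08 against 0.13 in the main fit. It also did so with DESeq2 (-0.60, adjusted p = 0.00980) and with a replicate block (-0.54, edgeR adjusted p = 0.0374), though same-numbered LTR8B and GFP libraries did not deviate together. Leaving out each library it ran from -0.70 to -0.49 (adjusted p from 0.0134 to 0.726), and untreated from -0.52 to 0.15, positive without GFP untreated replicate 1. Omitting a GFP library leaves 1 in its group, assumed to vary like the rest.

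The guide difference under exact permutation over both treatments ran from -0.40 to -0.29 for MX2 (p from 0.0267 to 0.12) and from -0.37 to -0.25 for MX1 (p from 0.0267 to 0.173) without each library, and for MX2 it was -0.35 (p = 0.133) with replicate pairs as units, chosen after seeing the data. Untreated it ran from -0.19 to 0.035 for MX2, positive without GFP untreated replicate 1. The log2 ratio difference ran from -0.25 to 0.20 over both treatments and from -0.39 to 0.53 untreated. The replicate block changed no other MX call, and the neighbour PRDM15 passed with it in LTR8B cells, as lower with IFNB.

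All genes called with IFNB between guides numbered 58, 260 without the filter and 118 with DESeq2 (21 to 69 without each library); untreated 59, 325 and 174 (22 to 94); averaged 351, 775 and 590, and 181 with the block (93 to 461); in the interaction 0, 13 without the filter and 4 with the block (0 to 1). GFP responses numbered 524 (344 to 594 without each library). Of the 5 genes nearest MX1, 2 stayed with a pseudocount of 0.25 and 3 with 4 group means; of those nearest MX2, 3 stayed with 0.25.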
